A study of Mus musculus with 15 samples.

Results

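A set of genes that mark microglia, the resident macrophages of the brain, was followed through 15 mouse brain libraries: C1qa, C1qb, C1qc, Ctss, Cx3cr1, P2ry12, Tmem119, Csf1r and Trem2. They were picked out by symbol as 9 of the 30386 genes in the table, and all 9 were among the 11718 genes with enough reads to be tested. The set was put together by measured values, with the difference between the vitamin B12 group and its heterozygous controls already known, and is therefore not a random sample of microglia genes. Its values in that comparison, and in the second comparison that uses the vitamin B12 libraries, are given as a description with no test.

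The study asked how losing 1 copy of the T-box gene Tbx1 affects the brain and whether vitamin B12 changes it. Of the libraries, 5 came from wild-type mice given PBS (WT_PBS), 5 from Tbx1+/- mice given PBS (Het_PBS) and 5 from Tbx1+/- mice given vitamin B12 at 20 mg/kg in PBS (Het_B12). All mice were injected intraperitoneally 2 times weekly over 4 weeks, starting at an age of 4 weeks, so all 3 groups share the injections. Wild-type mice given vitamin B12 were not analysed here. RNA came from a brain hemisphere by the sample labels and from the whole brain by the design text, and was sequenced by QuantSeq, which reads the 3′ ends of polyadenylated transcripts. The labels do not say outright that each library is a separate mouse, and the animal number 210 stands on both Het_PBS 5 and Het_B12 1, so p-values reflect only how these libraries vary, which may be technical.

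Microglia populate the brain early in development, depend on signalling through the receptor encoded by Csf1r, and survey neurons, vessels and synapses throughout life. C1q, built from the chains of C1qa, C1qb and C1qc, starts the classical complement cascade and is made in the brain chiefly by microglia, where it can tag synapses for removal. Cx3cr1, P2ry12, Tmem119 and Trem2 are surface proteins of microglia at rest or of microglia that clear debris, and Ctss encodes a lysosomal protease of antigen-presenting cells.

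RefSeq promoter windows for GRCm38.p6, each running from 250 bases before to 50 bases after an annotated start (position 1, with -1 just before it), were matched for 6 of the 9 genes: C1qb, C1qc, Ctss, Cx3cr1, P2ry12 and Trem2. They are shown because PU.1, the product of Spi1, is a master regulator of macrophages and binds a purine-rich core. The letters AGGAAGT on either strand (ACTTCCT on the other) were found in 4 of these 6 windows and in 9.35% of all 32851 windows. The AP-1 letters TGANTCA, which read the same on both strands and do not overlap the first motif in any of these windows, were found in 1 of the 6, that of Trem2, and in 7.81% of all windows. Both motifs were chosen after the windows had been seen, and a match describes letters and not binding. The 4 matches follow with their surroundings on the gene strand, 5′ to 3′, the motif in capitals.
P2ry12, chr3:59263001-59263067, minus strand, motif at -52 to -46: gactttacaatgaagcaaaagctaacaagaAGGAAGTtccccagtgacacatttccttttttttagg
Ctss, chr3:95526754-95526790, plus strand, motif at -2 to 5: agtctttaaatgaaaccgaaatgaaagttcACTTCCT
C1qb, chr4:136886217-136886283, minus strand, motif at -53 to -47: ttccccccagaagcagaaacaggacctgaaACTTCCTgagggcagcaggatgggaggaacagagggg
C1qc, chr4:136893073-136893139, minus strand, motif at -195 to -189: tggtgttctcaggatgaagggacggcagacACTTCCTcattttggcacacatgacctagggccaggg
Counted from the RefSeq start, the motif spans the start in Ctss, lies at nearly the same distance upstream in P2ry12 and C1qb, and farther upstream in C1qc. This order depends on the annotation. The GENCODE gene starts of P2ry12, C1qb and C1qc are at other bases, and from them the motif is nearest in C1qc and farthest in P2ry12. It is on the gene strand in P2ry12 and on the opposite strand in the other 3.

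Library totals ran from 1683258 to 2746122 reads. Tbx1 itself had 7 reads in all, with 12 libraries at 0 and at most 3 reads in any, so its level does not check the genotype labels here. A pair of PBS libraries stood apart. WT_PBS 3 had the lowest mean of the 9 genes among the 10 PBS libraries, -0.36 as the mean of log2 CPM centred on each gene's average (CPM, the count scaled to library size after trimmed-mean normalisation), against 0.15 to 0.43 in the other WT_PBS libraries. It also lay with the Het_B12 libraries on the first principal component of all genes, at 17.8 against -22.1 to -13.7 in the other WT_PBS libraries and 19.1 to 32.8 in Het_B12. Het_PBS 5 had the highest such mean of all 15, 0.53. Whether WT_PBS 3 carries the right label was not tested, and every WT_PBS value includes it unless it is said to be left out. For the 9 genes, differences that change sign or move by over 1.5 times without either or both of these libraries are given both ways. Checked against markers of the labelled tissue, 10 of 10 neuron markers and 31 of 40 further microglia genes had enough reads to test.

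**Figure D1:**
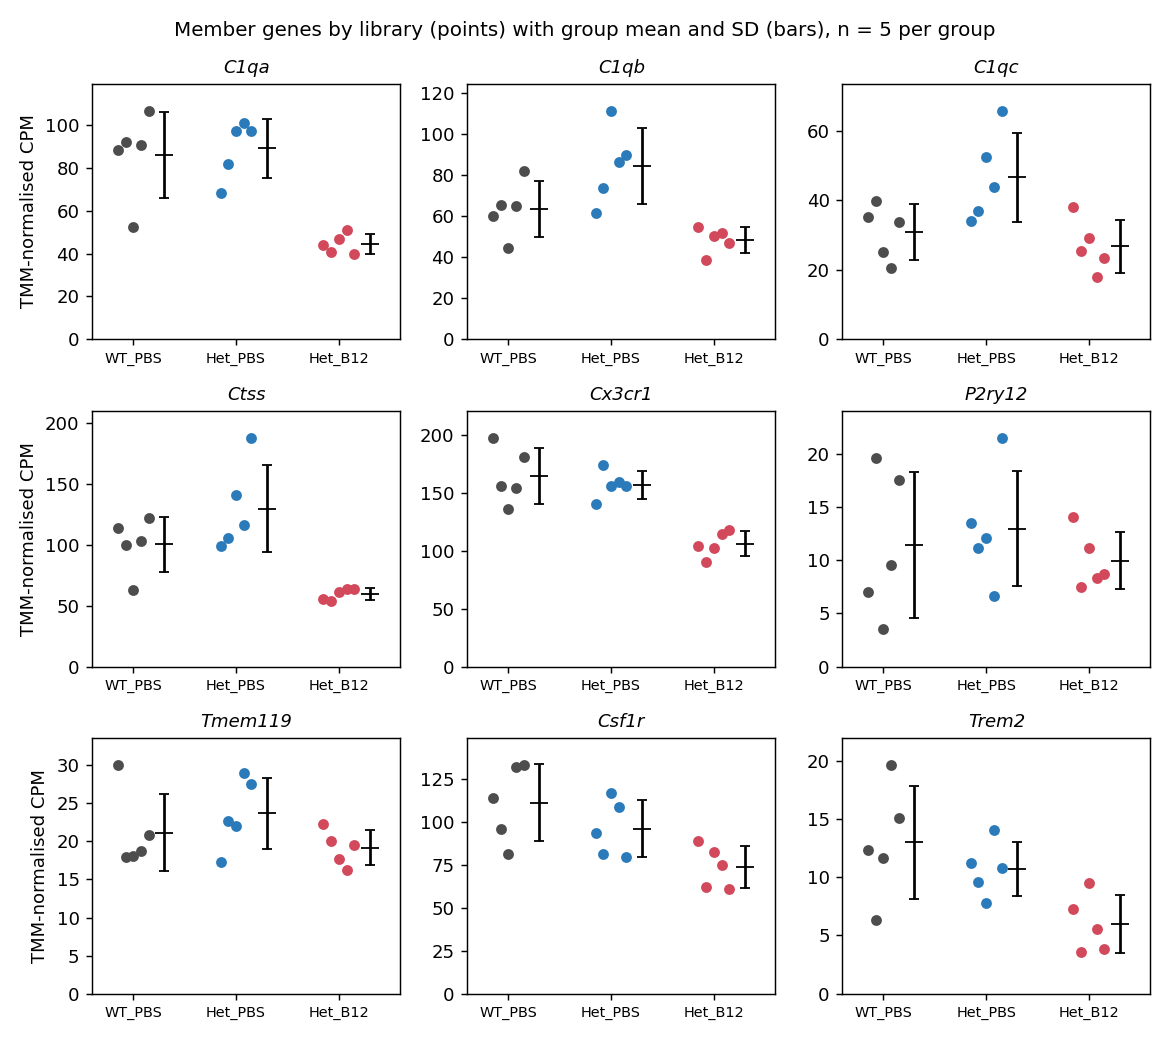
Level of each of the 9 genes in every library (vertical axes, CPM after trimmed-mean scaling, from 0) for WT_PBS, Het_PBS and Het_B12; points are libraries, and bars show the group mean and SD (n = 5). The Het_B12 points lie below every Het_PBS point for C1qa, C1qb, Ctss and Cx3cr1, and the groups overlap for the other 5 genes.

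The C1q chains were lower in Het_B12 than in Het_PBS, and C1qa was the most distinct of the 3. C1qa encodes the A chain. Its level in WT_PBS libraries 1 to 5 was 88.3, 92.0, 52.6, 90.5 and 107 CPM. In Het_PBS it was 68.3, 82.0, 97.1, 101 and 97.5 CPM, and in Het_B12 44.1, 40.8, 46.9, 50.8 and 39.8 CPM. All 5 Het_B12 libraries lay under all 10 PBS libraries, with WT_PBS 3 just above the highest of them. The means were 86.0 ± 20.0 CPM for WT_PBS, 89.2 ± 13.8 for Het_PBS and 44.5 ± 4.52 for Het_B12 (± SD, n = 5 libraries each). The log2 difference was -1.003 ± 0.15 (SE) from Het_PBS and -0.96 ± 0.15 from WT_PBS. In bulk tissue, fewer microglia and less of these transcripts per microglial cell cannot be told apart, here and for the other 8 genes.

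C1qb encodes the B chain. Its level was 60.4, 65.4, 44.4, 65.1 and 82.3 CPM in WT_PBS, 61.8, 73.7, 111, 86.3 and 89.7 CPM in Het_PBS, and 55.0, 38.7, 50.3, 52.0 and 46.7 CPM in Het_B12. Every Het_B12 library was under every Het_PBS library, and WT_PBS 3 fell inside the Het_B12 range. The log2 difference was -0.80 ± 0.16 from Het_PBS and -0.40 ± 0.16 from WT_PBS. The level order was Het_PBS (84.5 ± 18.6), WT_PBS (63.5 ± 13.5) and Het_B12 (48.5 ± 6.27), with both PBS groups and the WT_PBS and Het_B12 groups overlapping.

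C1qc encodes the C chain. Its level was 35.3, 39.9, 25.1, 20.4 and 33.8 CPM in WT_PBS, 34.2, 37.0, 52.6, 43.8 and 65.8 CPM in Het_PBS, and 38.2, 25.4, 29.2, 17.9 and 23.4 CPM in Het_B12. Het_B12 1 exceeded the 2 lowest Het_PBS libraries, so the groups overlapped, and the high end of Het_PBS was set by Het_PBS 5. The log2 difference from Het_PBS was -0.79 ± 0.20, and -0.65 without Het_PBS 5. From WT_PBS it was -0.21 ± 0.21, no larger than its SE.

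Within a library, the mean ratio of C1qb to C1qa was lowest in WT_PBS and highest in Het_B12. The log2 ratio of C1qb to C1qa averaged -0.43 ± 0.12 (SD) over WT_PBS, -0.09 ± 0.17 over Het_PBS and 0.12 ± 0.16 over Het_B12. No WT_PBS library, at -0.55 to -0.24, reached the lowest Het_PBS library, at -0.23, a gap smaller than the SD of either group. All Het_B12 libraries, at -0.08 to 0.32, lay above all WT_PBS libraries and overlapped Het_PBS. The ratio of C1qc to C1qa was more scattered, at -1.47 ± 0.43, -0.96 ± 0.25 and -0.77 ± 0.46, and overlapped between all groups. These ratios were looked at after the levels were known and were not tested. They compare groups and not the abundance of one chain with another. How often ratios of other gene pairs separate the groups was not counted.

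The C1q genes lie side by side on the minus strand, in the order C1qb (chr4:136880129-136886187), C1qc (chr4:136889804-136893065) and C1qa (chr4:136895917-136898803), within 18.7 kb of GRCm38 by the GENCODE annotation. Of the annotated genes within 250 kb, Ephb2, Epha8 and Zbtb40 were tested. Ephb2, an ephrin receptor gene, was 19.1 ± 4.58 CPM in Het_B12 against 10.1 ± 3.20 in Het_PBS, a log2 difference of 0.90 ± 0.29 with adjusted p = 0.0481 by edgeR, opposite in direction to the C1q genes. Its call was lost in 13 of the 25 alternatives, among them leaving out any 1 of Het_B12 1, 2, 3 and 4, Het_PBS 1, 2, 4 and 5 or WT_PBS 1. Epha8 differed by 0.29 ± 0.43 (adjusted p = 0.748) and Zbtb40 by 0.41 ± 0.41 (adjusted p = 0.613) in the same comparison.

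Ctss had the largest log2 difference of the 9 genes between Het_B12 and Het_PBS. It encodes cathepsin S, a cysteine protease that trims the invariant chain of MHC class II, and lies at chr3:95526786-95556403 on the plus strand. Its level was 113, 99.5, 63.1, 103 and 122 CPM in WT_PBS, 98.7, 105, 141, 116 and 187 CPM in Het_PBS, and 55.0, 53.4, 61.5, 63.6 and 63.5 CPM in Het_B12. Het_B12 was narrow, with an SD of 4.84 about a mean of 59.4, and under all Het_PBS libraries. Het_PBS 5 was far above its group and WT_PBS 3 lay among the Het_B12 values. The log2 difference from Het_PBS was -1.12 ± 0.16, and -0.95 without Het_PBS 5. From WT_PBS it was -0.76 ± 0.16, and -0.88 without WT_PBS 3.

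Cx3cr1, the receptor for the neuronal chemokine fractalkine, varied least within groups of the 9, with an SD of 0.16 on the log2 scale. It lies on the minus strand at chr9:119901616-120069879. Its level was 197, 156, 136, 154 and 181 CPM in WT_PBS, 140, 174, 156, 159 and 155 CPM in Het_PBS, and 104, 90.7, 103, 115 and 118 CPM in Het_B12. All Het_B12 libraries were under all 10 PBS libraries, and here WT_PBS 3, although lowest of the 10, stayed clear of them. The log2 difference was -0.57 ± 0.12 from Het_PBS and -0.64 ± 0.12 from WT_PBS. Both PBS groups differed by -0.07 ± 0.12.

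P2ry12, a purine receptor that steers microglial processes toward injury, had few reads. It lies on the minus strand at chr3:59216272-59262871, with 6 to 42 reads per library. Its level was 6.98, 19.7, 3.51, 9.59 and 17.5 CPM in WT_PBS, 13.6, 11.1, 12.1, 6.61 and 21.5 CPM in Het_PBS, and 14.1, 7.52, 11.2, 8.34 and 8.72 CPM in Het_B12. All 3 groups overlapped. The log2 difference from Het_PBS was -0.36 ± 0.34, and -0.13 without Het_PBS 5. From WT_PBS it was -0.21 ± 0.34, 0.05 without WT_PBS 2, a change of sign, and -0.42 without WT_PBS 3.

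Tmem119, a transmembrane protein used to tell microglia from other macrophages, lies on the minus strand at chr5:113793729-113800516. Its level was 29.975, 17.9, 18.1, 18.8 and 20.9 CPM in WT_PBS, 17.3, 22.7, 22.005, 28.9 and 27.5 CPM in Het_PBS, and 22.3, 20.1, 17.7, 16.3 and 19.5 CPM in Het_B12. The 3 groups overlapped, with WT_PBS 1 and the 2 highest Het_PBS libraries above all others. The log2 difference was -0.30 ± 0.21 from Het_PBS and -0.15 ± 0.21 from WT_PBS, the latter 0.01 without WT_PBS 1.

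Csf1r encodes the receptor for the colony-stimulating factor CSF1 and for IL-34, on which microglia depend for survival. Its level was 114, 96.0, 81.2, 132 and 133 CPM in WT_PBS, 93.6, 81.2, 117, 109 and 79.5 CPM in Het_PBS, and 88.7, 62.0, 82.5, 75.1 and 60.7 CPM in Het_B12. Levels stepped down from WT_PBS (111 ± 22.5) through Het_PBS (96.0 ± 16.5) to Het_B12 (73.8 ± 12.3), and each group overlapped the next. The log2 difference was -0.39 ± 0.15 from Het_PBS and -0.60 ± 0.15 from WT_PBS.

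Trem2, a lipid-sensing receptor of phagocytic microglia, lies on the plus strand at chr17:48346401-48354147 and had 10 to 47 reads per library. Its level was 12.3, 6.36, 11.7, 19.6 and 15.04 CPM in WT_PBS, 11.2, 9.56, 7.77, 14.0 and 10.8 CPM in Het_PBS, and 7.27, 3.58, 9.51, 5.56 and 3.84 CPM in Het_B12. Het_B12 3 lay inside the Het_PBS range, and the other 4 Het_B12 libraries lay under it. The log2 difference was -0.84 ± 0.33 from Het_PBS and -1.14 ± 0.33 from WT_PBS. At 10 reads the 95% Poisson interval for Het_B12 2 ran from 1.72 to 6.59 CPM, which covers counting error only.

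**Figure D2:**
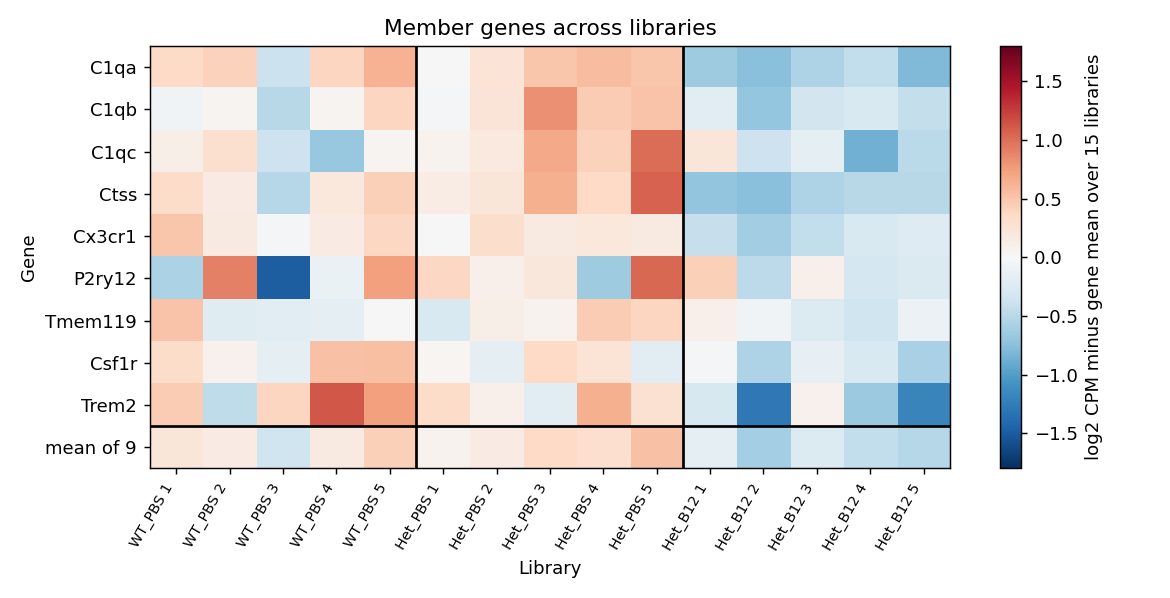
Log2 CPM of each gene minus its mean over the 15 libraries (colour), with genes as rows, libraries as columns, black lines between groups and the mean of the 9 genes in the bottom row. That mean is negative in all 5 Het_B12 libraries (-0.62 to -0.17) and in WT_PBS 3 (-0.36), and positive in the other 9 libraries.

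Across the 9 genes, all lay below 0 in Het_B12 minus Het_PBS, with a median log2 difference of -0.79 against 0.01 for all genes tested. In 4 of the 9 (C1qa, C1qb, Ctss and Cx3cr1) no Het_B12 library reached the lowest Het_PBS library, which held for 4.07% of all genes. The 9 genes were selected on this comparison, so these counts describe the choice.

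In Het_B12 minus WT_PBS, which shares the Het_B12 libraries, all 9 genes again lay below 0, with a median of -0.60 against 0.01 for all genes. The groups did not overlap for C1qa and Cx3cr1, 2 of the 9, against 2.94% of all genes. The comparisons share libraries, and their agreement is not support for either.

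The effect of the Tbx1 genotype alone was compared between Het_PBS and WT_PBS, which shares the Het_PBS libraries with the comparison that chose the genes. Of the 9 genes 0 were called in either direction by edgeR, with adjusted p from 0.524 to 0.972, and 3 had an unadjusted p under 0.05. Over all genes, 0% were called lower and 0% higher, and 879 of 11718 had an unadjusted p under 0.05. DESeq2 and limma-voom called 0 genes as well. The largest differences were in C1qc (0.59 ± 0.20, adjusted p = 0.524), C1qb (0.41 ± 0.16, adjusted p = 0.574) and Ctss (0.36 ± 0.15, adjusted p = 0.608), all toward Het_PBS. A choice of genes lower in Het_B12 than in Het_PBS favours high Het_PBS values, so differences in this direction are not independent of the choice. Without both WT_PBS 3 and Het_PBS 5, C1qc was 0.38, C1qb 0.29 and Ctss 0.07. C1qa (0.05 ± 0.15, adjusted p = 0.972) and Cx3cr1 (-0.07 ± 0.12, adjusted p = 0.934) differed by less than their SE, and without both libraries C1qa changed sign to -0.11 and Cx3cr1 was -0.12. P2ry12 changed sign from 0.16 to -0.05 without WT_PBS 3, to -0.08 without Het_PBS 5 and to -0.29 without both, and Tmem119 went from 0.15 to 0.05 without both. Trem2 (-0.30 ± 0.31, adjusted p = 0.876) and Csf1r (-0.22 ± 0.14, adjusted p = 0.77) lay toward WT_PBS. The median over the 9 genes was 0.15, -0.05 without WT_PBS 3, 0.01 without Het_PBS 5 and -0.11 without both. Its sign changed without WT_PBS 3, and it was near 0 without Het_PBS 5.

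**Figure D3:**
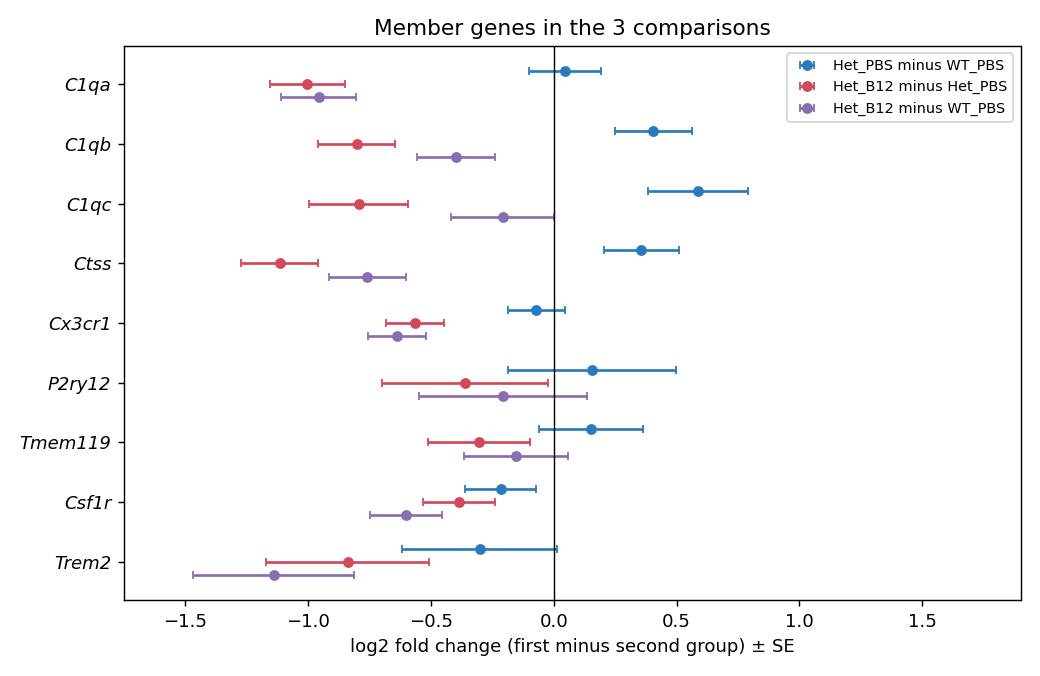
Log2 fold change with its SE (horizontal axis) for the 9 genes in the 3 comparisons, from 1 edgeR fit to all 15 libraries. Both comparisons with Het_B12 lie left of 0 for every gene, and Het_PBS minus WT_PBS lies on both sides of 0.

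The median of other microglia genes lay nearer 0. Of 40 further homeostatic microglia genes written down as a list, 31 were tested, and in Het_B12 minus Het_PBS 2 were lower, 0 higher and 29 did not pass by edgeR's quasi-likelihood test, where 3.79% of all genes were called lower and 3.47% higher. Their median was -0.37 against 0.01 for all genes, with 26 of 31 below 0. Fcer1g, the shared gamma chain of Fc receptors, fell from 23.5 ± 3.15 to 10.1 ± 4.57 CPM (log2 difference -1.22 ± 0.26, adjusted p = 0.00257). Fcrls, an Fc receptor-like gene of mouse microglia, fell from 28.4 ± 4.31 to 15.6 ± 6.66 CPM (-0.84 ± 0.24, adjusted p = 0.0241), and its call was lost without any 1 of Het_PBS 4, Het_PBS 5, Het_B12 1 or Het_B12 2. Aif1, which encodes the marker IBA1, was 23.8 ± 6.01 and 13.6 ± 6.17 CPM (-0.82 ± 0.29, adjusted p = 0.076). Sall1, a transcription factor of microglial identity, differed by 0.06 ± 0.35 (adjusted p = 0.947). The count of 2 became 1 without Het_PBS 4 or Het_B12 2 and 4 without WT_PBS 3 or Het_PBS 2.

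In Het_B12 minus WT_PBS the same list had 3 lower, 0 higher and a median of -0.47, where 4.11% of all genes were called lower and 3.22% higher. The 3 were Aif1 (-1.11 ± 0.28, adjusted p = 0.0125), Fcrls (-0.95 ± 0.24, adjusted p = 0.00983) and Mertk (-0.47 ± 0.15, adjusted p = 0.041), a receptor for apoptotic cells. Mertk was named after its value was seen, and was called in 15 of 25 alternatives. The call for Mertk was lost without any 1 of WT_PBS 1, 3 and 5 or Het_B12 1, 2, 3 and 5, that for Aif1 without WT_PBS 5 and that for Fcrls without WT_PBS 1. The count of 3 became 1 without WT_PBS 1 or WT_PBS 5 and 5 without Het_B12 4. In Het_PBS minus WT_PBS 0 of 31 were called by edgeR, DESeq2 or limma-voom, 1 had an unadjusted p under 0.05, and the median was -0.06.

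Most complement genes outside C1q did not pass the test. Of 39 complement genes outside C1q, which included receptors and regulators, 21 were tested, and in Het_B12 minus Het_PBS 1 was lower, 2 were higher and 18 did not pass, with a median of 0.04, against 3.79% lower and 3.47% higher over all genes. Clu, whose product clusterin restrains the terminal complex and which astrocytes make in quantity, fell from 1057 ± 64.6 to 744 ± 62.0 CPM (-0.51 ± 0.10, adjusted p = 0.001). Csmd1 rose from 18.1 ± 2.71 to 32.9 ± 2.95 CPM (0.85 ± 0.22, adjusted p = 0.0127) and Csmd2 from 24.8 ± 4.48 to 46.0 ± 10.7 CPM (0.88 ± 0.20, adjusted p = 0.00373), both large neuronal membrane proteins with complement-control repeats. C3, the central component, was 3.23 ± 0.67 in WT_PBS, 7.01 ± 5.32 in Het_PBS and 3.67 ± 1.66 CPM in Het_B12 and was not called between Het_B12 and Het_PBS (-0.93 ± 0.47, adjusted p = 0.239). C4b differed by -0.16 ± 0.28 (adjusted p = 0.793) and Serping1, the C1 inhibitor, by -0.86 ± 0.32 (adjusted p = 0.0979). The proteases that join C1q in the C1 complex were too low to test, with 41 reads for C1ra and 6 for C1s1 over all libraries. In Het_B12 minus WT_PBS, where 4.11% of all genes were called lower and 3.22% higher, 1 was lower and 2 were higher. This count of 3 became 1 without WT_PBS 1, WT_PBS 5 or Het_B12 1. In Het_PBS minus WT_PBS 0 were called by edgeR, DESeq2 or limma-voom, and 1 had an unadjusted p under 0.05.

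Of 21 ligands, adaptors and signalling partners of the receptors 15 were tested, and in Het_B12 minus Het_PBS 1 was lower (Clu, counted above) and 0 were higher by edgeR, while DESeq2 and limma-voom called 3 each. Over all genes 3.79% were called lower and 3.47% higher by edgeR. Cx3cl1, the ligand of CX3CR1, was 175 ± 29.0 in Het_PBS and 219 ± 38.9 CPM in Het_B12 (0.32 ± 0.14, adjusted p = 0.174). Il34, a ligand of the Csf1r product, was 55.4 ± 9.90 and 41.5 ± 10.9 CPM (-0.43 ± 0.17, adjusted p = 0.132), and Csf1, the other ligand, differed by 0.01 ± 0.43 (adjusted p = 0.994). Tyrobp, the adaptor of TREM2, was 12.1 ± 6.48 in WT_PBS, 22.9 ± 6.65 in Het_PBS and 15.2 ± 3.81 CPM in Het_B12 and was not called in any of the 3 comparisons. Against WT_PBS, Cx3cl1 was called higher in Het_B12 (0.49 ± 0.14, adjusted p = 0.0285) and Il34 lower (-0.55 ± 0.17, adjusted p = 0.0462). These calls were lost in 6 and 11 of 25 alternatives, for Cx3cl1 without any 1 of WT_PBS 1, 4 and 5 or Het_B12 1, 2 and 3, and for Il34 without any 1 of WT_PBS 1 and 4, Het_PBS 1, 2 and 4 or Het_B12 1, 2, 3 and 5.

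Among 15 other cathepsins and cystatins 12 were tested, and 2 were lower in Het_B12 than in Het_PBS and 0 higher, with a median of -0.22. In that comparison 3.79% of all genes were called lower and 3.47% higher. Ctsd, an aspartyl protease of lysosomes in many cell types, fell from 396 ± 25.7 to 283 ± 36.6 CPM (-0.49 ± 0.11, adjusted p = 0.00256). Cst3, a secreted inhibitor of cathepsins, fell from 1282 ± 224 to 930.3 ± 64.2 CPM (-0.46 ± 0.13, adjusted p = 0.0249), a call lost without any 1 of Het_PBS 1 and 5 or Het_B12 1, 3, 4 and 5. Of 29 genes of activated and disease-associated microglia 16 were tested and 3 were lower by edgeR: Cd63 (-0.62 ± 0.13, adjusted p = 0.00155), Ctsd and Ccl6 (-2.08 ± 0.56, adjusted p = 0.016). Cd63 was 385 ± 41.6 CPM in Het_PBS and 250 ± 23.2 CPM in Het_B12. Which cells of the bulk tissue gave the reads of these genes was not tested. The call for Ccl6, a chemokine gene with 4.54 ± 2.45 CPM in Het_PBS and 1.03 ± 0.70 CPM in Het_B12, was lost without any 1 of Het_PBS 2, Het_B12 1 or Het_B12 3. Of 15 myeloid transcription factors tested, edgeR called 0 in each of the 3 comparisons. In Het_B12 minus Het_PBS 1 had an unadjusted p under 0.05 and DESeq2 and limma-voom called 0, and in Het_B12 minus WT_PBS 5 had an unadjusted p under 0.05 and limma-voom called 1. Spi1, which encodes PU.1, differed by -0.77 ± 0.47 (adjusted p = 0.35) and Irf8 by -0.44 ± 0.37 (adjusted p = 0.541) between Het_B12 and Het_PBS.

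**Figure D4:**
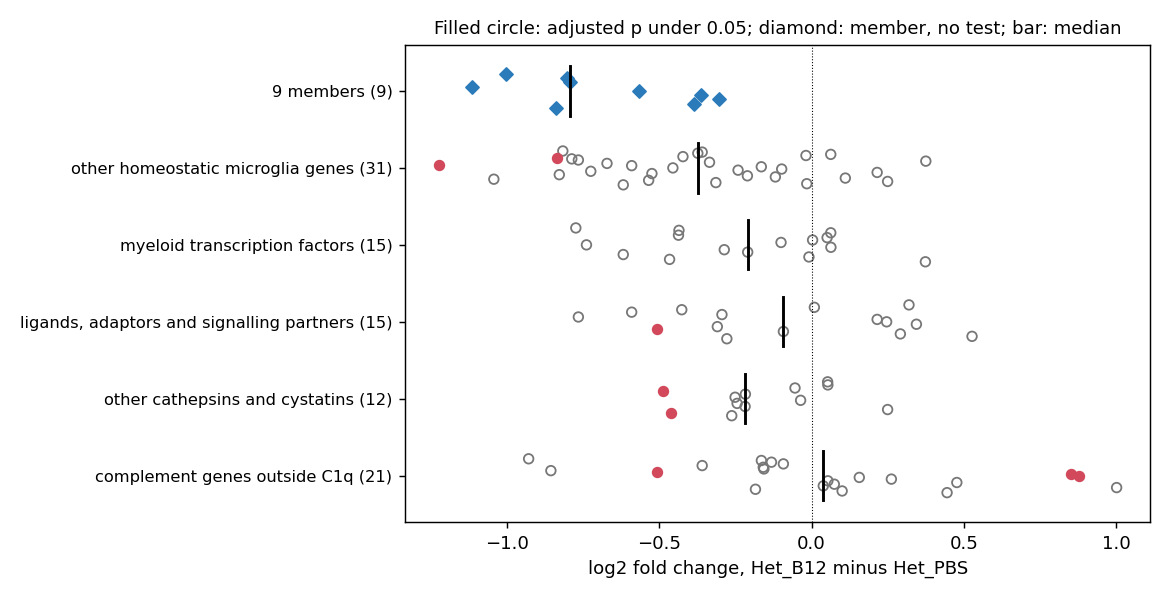
Log2 fold change of Het_B12 minus Het_PBS (horizontal axis) for the 9 genes and for 5 related lists, with the number tested in brackets. Filled circles passed edgeR's test over all genes, diamonds are the 9 genes, drawn with no test, and black bars are medians, which run from -0.79 for the 9 genes to 0.04 for complement genes outside C1q.

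Genes whose profile over the 15 libraries was most like the mean of the 9 were ranked by the root mean square difference of centred log2 CPM. The closest that are no members included Rpl31 (0.13), Enho, Dbi, Prdx6, Snx6, Rpl37 and Timp4 (0.15). Rpl31 and Rpl37 encode ribosomal proteins, and none of those named is one of the microglia genes listed above. Of the 9 genes, C1qb was nearest to the mean (0.17) and P2ry12 farthest (0.55). Among the 11718 genes tested, 20 that are no members lay closer to that mean than C1qb. For C1qc this number was 1276, for Trem2 5445 and for P2ry12 6729. Ctss and C1qa were the closest pair (0.21), and the 2 genes with the fewest reads, P2ry12 and Trem2 (0.49), stood farthest out.

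Markers of several other cell types also differed between Het_B12 and Het_PBS, where 3.79% of all genes were called lower and 3.47% higher. Astrocyte markers (11 tested) had 8 lower and 0 higher in Het_B12 than in Het_PBS, with summed levels of 5428 to 7575 CPM in WT_PBS, 6583 to 7724 in Het_PBS and 4343 to 5154 in Het_B12, and WT_PBS 3 was lowest of the PBS libraries here too. Neutrophil and monocyte markers (4 of 15 tested) had 3 lower, with sums of 28.05 to 51.3, 27.1 to 112 and 8.74 to 21.1 CPM. Erythroid markers had 5 of 5 lower, with sums of 486 to 1297, 778 to 4991 and 499 to 979.6 CPM. Meningeal and fibroblast markers had 4 of 7 lower, with sums of 1904 to 4400.2, 2518 to 3418 and 1609 to 2311 CPM. Endothelial markers (8 tested) had 6 higher and 0 lower, with sums of 82.1 to 116, 83.7 to 119 and 187 to 263 CPM. In Het_B12 minus WT_PBS edgeR called 6 astrocyte, 2 neutrophil and monocyte and 4 meningeal and fibroblast markers lower. It called 6 endothelial markers higher, where 4.11% of all genes were called lower and 3.22% higher. Of 5 erythroid markers edgeR, DESeq2 and limma-voom called 0 there, and 0 had an unadjusted p under 0.05.

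Border macrophages also express C1q, Ctss, Cx3cr1 and Csf1r, and most of their markers had too few reads to test. Of their 14 markers 4 were tested, 2 had an unadjusted p under 0.05 in Het_B12 minus Het_PBS, edgeR, DESeq2 and limma-voom called 0 and Siglec1 had 0 reads, with sums of 23.4 to 68.2 CPM in WT_PBS, 40.1 to 56.9 in Het_PBS and 25.004 to 35.9 in Het_B12. Of 12 lymphocyte markers 2 were tested, 0 had an unadjusted p under 0.05 and edgeR, DESeq2 and limma-voom called 0, and Cd79a and Ms4a1 had 0 reads, with sums of 20.5 to 34.5, 21.1 to 40.5 and 17.2 to 33.6 CPM. Oligodendrocyte markers had 2 of 9 lower, with sums of 3889.9 to 8407, 4878 to 8419 and 4589.9 to 6443 CPM. Neuron markers had 1 of 10 higher and 0 lower, with sums of 5945 to 6945, 5688 to 6529 and 6033 to 6481 CPM. Over all genes 3.79% were called lower and 3.47% higher in Het_B12 minus Het_PBS. The share of reads on Gm42418, a gene that overlaps ribosomal RNA, was 11.9% ± 1.78 (SD) for WT_PBS, 8.52% ± 1.73 for Het_PBS and 5.29% ± 1.25 for Het_B12. The 3 groups did not overlap in it, at 10.6% to 14.9%, 6.47% to 10.3% and 3.31% to 6.28%. Trimmed-mean scaling factors were 1.05 to 1.08 in Het_B12, above all PBS libraries (0.93 to 1.01). The mitochondrial share was 7.29% ± 1.32, 9.75% ± 1.33 and 8.47% ± 0.69. Scaling without Gm42418, AY036118 and mitochondrial genes left the median of the 9 at -0.80 in Het_B12 minus Het_PBS. Treatment and a difference in library preparation that follows the groups cannot be told apart here. The part of these other cells and of RNA quality in the lower level of the 9 genes was not tested.

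**Figure D5:**
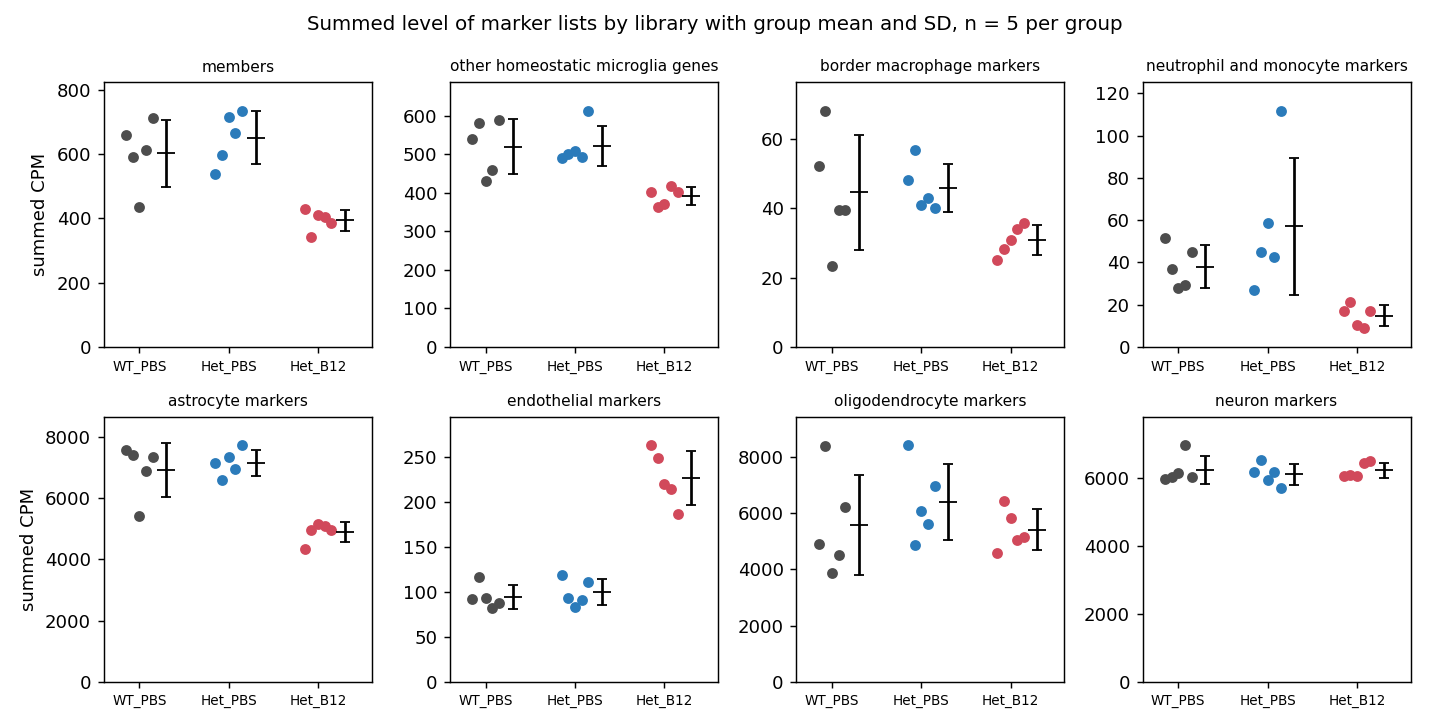
Summed CPM of 8 marker lists in every library (vertical axes from 0) for the 3 groups; points are libraries and bars the group mean and SD (n = 5). Het_B12 lies under every PBS library for the 9 members, other microglia genes, neutrophil and monocyte markers and astrocyte markers, above every one for endothelial markers, and among them for neuron markers.

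Of the 9 genes 3 overlap a gene on the opposite strand with many reads, and the strand setting of the counting is not stated by the labels or notes. Cx3cr1 overlaps Wdr48 on the opposite strand, which had 29.9% as many reads, Csf1r overlaps Hmgxb3 (18.9%), and P2ry12 overlaps Med12l (257%). In Het_B12 minus Het_PBS, Wdr48 differed by 0.12 ± 0.15 (adjusted p = 0.708), Hmgxb3 by -0.01 ± 0.26 (adjusted p = 0.988) and Med12l by 0.08 ± 0.20 (adjusted p = 0.876). These overlaps are of whole gene spans, introns included, and the percentages count all reads of the other gene. Whether the genes share exons was not looked at. If strand was not used, any reads of P2ry12 and Med12l in shared exons could not be told apart, and the P2ry12 values carry that uncertainty. Cx3cr1 also overlaps Gorasp1 (5.51% as many reads) and Csrnp1 (2.63%) on its own strand. The C1q genes, Tmem119 and Trem2 overlap no other annotated gene.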

How the data were processed

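QuantSeq 3′ libraries of mouse brain (15, with 5 per group) were deposited as 1 table of raw counts per gene; the authors' files hold whole numbers and were made with STAR and HTSeq on mm10, with edgeR also named, per the submitters' processing notes. Versions, annotation and strand setting were not given in the sources used here. Samples were grouped by the labels. Counts of 11718 genes kept by filterByExpr were fitted with edgeR 4.0.16 (R 4.3.3) as 1 quasi-likelihood model of the 3 groups, with trimmed-mean (TMM) scaling and Benjamini-Hochberg adjustment over all genes tested, called at adjusted p under 0.05. The fit was tested on simulated data, with counts drawn for 11718 genes. It recovered 74% of 2-fold and 36% of 1.5-fold changes in Het_PBS minus WT_PBS, 65% and 39% in Het_B12 minus Het_PBS and 73% and 33% in Het_B12 minus WT_PBS, and 4.35%, 8.77% and 4.5% of its calls were false. CPM carry the TMM factors, and log2 profiles use a prior of 0.5 reads. Totals were 1683258 to 2746122 reads, which limits genes with few reads.

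The members and lists were chosen with earlier results of these data known. Named genes were all members, up to 4 genes per list with the smallest p in Het_B12 minus Het_PBS, genes chosen by role, genes overlapping a member, genes within 250 kb of the C1q genes and the 8 genes of most similar profile. Positions are from GENCODE (GRCm38); 99.62% of identifiers matched. No 2 libraries were identical: over 30 pairs within groups the lowest chi-square per degree of freedom was 3.14. Replicate numbers were taken from the titles and did not pair the libraries. Alternatives were DESeq2 1.42.0, its size factors, limma-voom (limma 3.58.1), scaling without Gm42418, AY036118 and mitochondrial genes, 2 filters, fits of 2 groups, a replicate block and leaving out libraries. Some of the genes that the naming rule takes are not reported here.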

Additional observations from a re-analysis of the deposited data

Results flagged for a closer look

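Of 63 sets of 5 libraries (each gene and each marker sum in each group) 4 held a library whose gap to its nearest neighbour took up most of the range, and chance gives about 1 in 20. Tmem119 was highest in WT_PBS 1, at 29.975 CPM against 20.9 in the next library, and Het_B12 minus WT_PBS for Tmem119 was 0.01 on the log2 scale without it. The summed level of other homeostatic microglia genes was highest in Het_PBS 5, at 613 CPM against 509 in the next library of its group; this library also had the highest C1qc, Ctss and P2ry12 of the 10 PBS libraries. The astrocyte marker sum was lowest in Het_B12 1, at 4343 CPM against 4947 in the next library. The neuron marker sum was highest in WT_PBS 4, at 6945 CPM against 6149.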

How the results depend on the processing

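The members' medians kept their sign in Het_B12 minus Het_PBS (-0.85 to -0.65 when any 1 library was left out) and Het_B12 minus WT_PBS (-0.69 to -0.53). In Het_PBS minus WT_PBS the median ran from -0.05 to 0.17 when 1 library was left out. It was -0.11 without both WT_PBS 3 and Het_PBS 5, and went from 0.15 to 0.05 without WT_PBS 1. In Het_PBS minus WT_PBS 0 members were called in any alternative. With a mean count of at least 50, P2ry12, Tmem119 and Trem2 dropped out, so no members' median was computed.

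Genes called in Het_PBS minus WT_PBS were 40 with no filter on low counts, 1 without both WT_PBS 3 and Het_PBS 5, 2 without both Het_PBS 5 and Het_B12 1, and 0 to 14 when 1 library was left out. In Het_B12 minus Het_PBS they were 437 without both Het_PBS 5 and Het_B12 1 and 549 to 1050 when 1 library was left out; in Het_B12 minus WT_PBS they were 1390 without both WT_PBS 3 and Het_PBS 5 and 449 to 1268. Other homeostatic microglia genes called in Het_B12 minus Het_PBS were 1 with the mean count filter, 4 with 2 groups only and 1 to 4 when 1 library was left out; in Het_B12 minus WT_PBS they were 5 by limma-voom and 1 to 5. Complement genes called in Het_B12 minus WT_PBS were 5 with the mean count filter and 1 to 4 when 1 library was left out. Apart from leaving out libraries, the causes were not tested.

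With a replicate block, 830 genes were called in Het_B12 minus Het_PBS, 800 in Het_B12 minus WT_PBS and 0 in Het_PBS minus WT_PBS, and the members' medians were -0.80, -0.60 and 0.17. The replicate numbers did not pair the libraries: 1 of 15 same-number pairs had deviations correlated above 0.1 (range -0.09 to 0.11), and 5 of 15 libraries lay closest to their own number. Of 258 single genes in single comparisons (the members only in Het_PBS minus WT_PBS), 61 gained or lost a call in at least 1 of 25 alternatives.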
